A study of Mus musculus with 24 samples.

Results

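The microRNA (miRNA) described here is mmu-miR-551b, 1 of the 650 names on an Agilent miRNA array that was hybridised with RNA of mouse lungs of 5 ages after birth. It was picked by its name because its signal stood highest in the first week of life, so its levels by age are given as a description, without a test. The RNA was total RNA of whole lung from C57BL/6 mice, labelled with Cy3 from 100 ng per array. There were 5 arrays for each of day 1, day 4, day 7 and day 14, and 4 arrays for 6 weeks, which is called day 42. The labels name no treatment or altered allele, and call each array a biological replicate without saying whether each came from its own animal, so p-values measure the spread between these samples. Fetal lungs are named in the title of the study, but all sample labels give postnatal ages, and the labels were followed.

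A miRNA is a short RNA that is cut from a hairpin-shaped precursor, is loaded into an Argonaute protein and lowers the output of messages that pair with its seed, the bases near its 5′ end. The mouse lung is born before it has true alveoli. In the weeks that follow, thin ridges grow into the air sacs and divide them, the capillary layer is remodelled, and growth then slows. The human miR-551b has been studied mostly in tumour cells.

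In the mouse genome build GRCm38.p6, RefSeq places the hairpin gene Mir551b at chr3:29416823-29416920, a stretch of 98 bases. It lies inside the bounds of the protein-coding gene Egfem1 (EGF-like and EMI domain containing 1, chr3:29081653-29691058), 335170 bases from one end of that gene and 274138 bases from the other. Whether it falls in an exon or an intron of Egfem1 was not analysed here. The array name carries no arm, and in older nomenclature such a plain name meant the main arm, which is now called miR-551b-3p; the probe sequences were not analysed here. Both arms are shown so that the seed read by each can be compared, with the seed (bases 2 to 8) in capitals, and both are encoded on the + strand.
mmu-miR-551b-3p: gCGACCCAuacuugguuucag
mmu-miR-551b-5p: gAAAUCAAgcuugggugagaccu
The 3p arm is read from chr3:29416879-29416899 and the 5p arm from chr3:29416840-29416862. Among the 1679 mature mouse miRNA names in the RefSeq table, the seed CGACCCA occurred in 1, miR-551b-3p itself, and the seed AAAUCAA also in 1. No other name of that table could therefore be grouped with miR-551b by seed. Array names without a match in the table were not searched.

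The arrays lay on 3 slides of 8, and each slide held arrays of all 5 ages. Between 266 and 348 names were detected per array, 383 on at least 1 array and 228 on all 24. A name counted as tested when all arrays of some age detected it, and 322 names did. The brightness of an array, taken as the 75th percentile of the signals of the 228 always-detected names, lay between 923 and 4953 and was used to scale each array. The lung label was checked against marker miRNAs. Both names of the endothelial list (miR-126-3p and miR-126-5p) and all 5 of the mesenchyme and smooth muscle list were detected on every array, as were 5 of 6 of the epithelial list, the miR-200 family members, with miR-205 missing from 1 array. Of 7 names of the nervous tissue list, miR-124 and miR-129-5p were never detected. The other 5 were detected on at least 1 array, and 1 of them, miR-128, on every array, so this list was not absent. The summed scaled signal of the 7 striated muscle miRNAs was 37912 on day 1 replicate 2, 370 to 2250 on the other day 1 arrays and at most 5760 on the arrays of later ages, and that of the 4 liver and gut miRNAs was 1136 on day 7 replicate 2 and at most 527 on the others. Without day 1 replicate 2, day 4 minus day 1 was 1.34 and day 42 minus day 1 was -3.75 for miR-551b on the log2 scale.

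The array labelled day 14 replicate 5 stood apart from the other 4 arrays of its age, and results that rest on day 14 are given with and without it. Over the other 321 tested miRNAs, 222 (69.2%) were closer to the day 7 mean than to the mean of the other day 14 arrays on that array, against 52 to 82 (16.2 to 25.5%) on each of the others. For 204 of the 321 its value lay outside the range of the other 4 arrays, and in 195 of these it lay on the day 7 side. Its mean absolute difference from the day 7 means was 0.32 on the log2 scale, against 0.46 from the means of the other day 14 arrays. Of the 24 arrays, 15 lay nearest to the mean of their own age by this measure, and 8 of the 9 others were first-week arrays nearest to another first-week age. The label was kept.

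**Figure D1:**
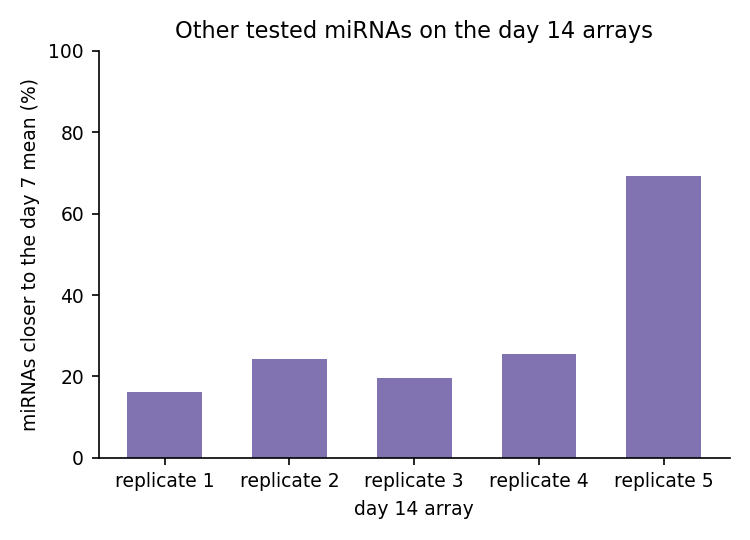
Share of the other 321 tested miRNAs whose value on a day 14 array was closer to the day 7 mean than to the mean of the other day 14 arrays, in percent, with 1 bar per array. Replicate 5 reached 69.2% and the other 4 arrays 16.2 to 25.5%.

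miR-551b was high through the first week, highest at day 7, and much lower at day 14 and again at 6 weeks. In scaled signal units it measured 790, 858, 1242, 227 and 337 on the day 1 arrays (replicates 1 to 5). At day 4 the arrays gave 673, 1788, 1077, 1704 and 1837. At day 7 they gave 2255, 2527, 2263, 2067 and 1615. The day 7 arrays were thus the tightest of the first week and all lay above every day 1 array.

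At day 14 the signals were 129, 160, 143 and 157 on replicates 1 to 4, and 2062 on replicate 5. At day 42 they were 54.8, 48.1, 53.6 and 16.2. Replicates 1 to 4 of day 14 lay below every array of days 1, 4 and 7, whereas replicate 5 lay among the day 7 arrays. The day 42 arrays were the lowest of all and overlapped with no other age. Since whole lung was measured, fewer cells that hold miR-551b and less miR-551b per cell cannot be told apart.

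**Figure D2:**
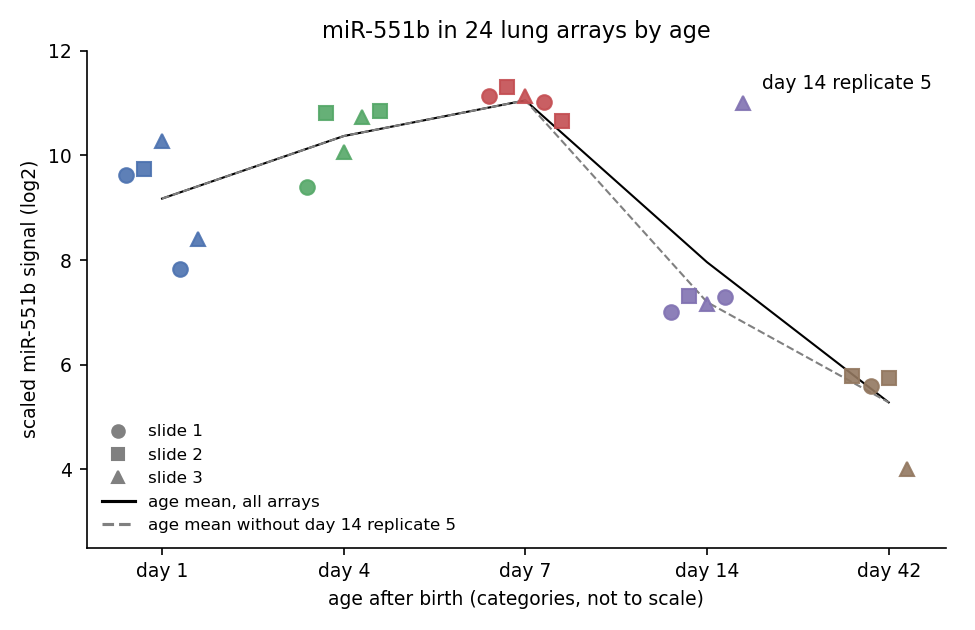
Scaled miR-551b signal on the log2 scale for each of the 24 arrays (points, with the shape giving the slide) by age, which is drawn as equally spaced categories. The day 7 arrays lie between 10.66 and 11.30, day 14 replicates 1 to 4 between 7.01 and 7.32 with replicate 5 at 11.01, and the day 42 arrays between 4.01 and 5.78.

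On the log2 scale, miR-551b averaged 9.17 ± 1.02 at day 1, 10.37 ± 0.63 at day 4 and 11.05 ± 0.24 at day 7 (SD, n = 5 each). It averaged 7.96 ± 1.71 at day 14 (SD, n = 5), or 7.20 ± 0.14 without replicate 5 (n = 4), and 5.28 ± 0.85 at day 42 (SD, n = 4). In order of the means, day 7 came first, then day 4, day 1, day 14 and day 42. Neighbours in that order overlapped for day 7 and day 4, and for day 4 and day 1. Day 14 overlapped with day 1 only through day 14 replicate 5.

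Day 4 was above day 1 by 1.20 on the log2 scale (standard error of the limma model 0.60, or 0.40 without day 14 replicate 5), a 2.29-fold difference, and 3 of 5 day 4 arrays lay above all day 1 arrays. Between these ages limma called 1.55% of the 322 tested miRNAs at an adjusted p under 0.05, from which nothing is read about miR-551b. Day 7 was above day 4 by 0.68 (1.60-fold, standard error 0.60 and 0.40), with 4 of 5 day 7 arrays above all day 4 arrays. The steps within the first week were therefore of the size of the spread between arrays. Day 7 lay above day 1 by 1.88 (3.67-fold), without overlap. Shares of the tested miRNAs without overlap were not counted for any pair of ages. Mean array brightness also differed, with 1539 at day 1, 1957 at day 4 and 2418 at day 7. With brightness as a covariate both steps were smaller, as given below. The median over the 322 tested miRNAs was 0.03 for day 4 minus day 1 and -0.08 for day 7 minus day 4.

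The differences after the first week were larger in size. Day 14 was 8.53-fold below day 7, a difference of -3.09 on the log2 scale with a standard error of 0.60, and limma called 31.4% of the tested miRNAs between these ages. Without replicate 5 it was 14.5-fold below day 7 (-3.85, standard error 0.43), and no array overlapped. Day 42 was 6.40-fold below day 14 (-2.68 on the log2 scale, standard error 0.64), and 3.77-fold without day 14 replicate 5 (-1.92, standard error 0.45). All 4 day 42 arrays lay below all day 14 arrays either way.

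Set against day 1, day 14 was 2.32-fold lower (-1.22 on the log2 scale), and 3.94-fold lower (-1.98) without replicate 5. With no scaling between arrays this difference was -0.13, and with array brightness as a covariate it was -2.22. Day 42 was 14.9-fold below day 1 (-3.89, standard error 0.64) and 54.6-fold below day 7 (-5.77), where the median of all tested miRNAs was -0.35 and -0.29. This distance between the highest and the lowest age mean was 5.77 for miR-551b, and none of the 322 tested miRNAs had a larger one. The median over the 322 was 0.92. The mean of days 4, 7 and 14 exceeded the mean of days 1 and 42 by 2.57 (standard error 0.40), and by 2.31 (0.27) without day 14 replicate 5, beside a median of 0.13 over all tested miRNAs. The day 42 signals behind these folds were close to background, with 1, 5, 10 and 0 of the 10 spots of probe A_54_P2865 well above it on replicates 1 to 4, and 10, 10, 10 and 1 of those of A_54_P4406. The folds against day 42 are the measured ratios and are uncertain to that extent. These contrasts are the ones miR-551b was chosen on, so nothing further is read from their size.

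Marker sums differed over the same ages. The summed scaled signal of the 5 mesenchyme and smooth muscle miRNAs was between 18790 and 25852 on the arrays of days 1 and 4. It was 20468 to 23744 at day 7 and 16027 to 19624 at day 14, and it was 11990 to 14732 at day 42. The sum of the 6 leukocyte miRNAs ran the other way, with 12673 to 15805 at day 42, against 4980 to 8622 at day 1. The endothelial sum was 62485 to 83814 at day 42, against 31975 to 49293 at day 1, again without overlap. It was mostly miR-126-3p, which was at 15.98 to 16.30 (log2) on day 14 replicates 1 to 4, against 10.74 to 11.27 for miR-126-5p. The epithelial sum differed less, with 14593 to 16784 at day 42 and 12380 to 15904 at day 1. The sums of the remaining lists also overlapped between these ages. The multiciliated cell sum, for example, was 3492 to 7799 at day 42 and 1806 to 6667 at day 1. Whether changing shares of these cells played a part in the course of miR-551b was not tested.

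On day 14 replicate 5 the marker sums also lay apart from the other day 14 arrays. The leukocyte sum was 7549 there, against 10072 to 12496 on the other 4. The endothelial sum was 57538, against 66898 to 82365, and the epithelial sum 13344, against 14260 to 16000. These 3 sums were thus lower on replicate 5, but not every member was. The epithelial miR-200c, miR-141, miR-429 and miR-205 lay within the range of the other 4 arrays. The leukocyte miR-223 (11.24 on the log2 scale) lay above their 11.11 to 11.23. The mesenchyme and smooth muscle sum was 19624, against 16027 to 18984. In this list miR-199a-5p, miR-199a-3p and miR-214 lay above the range of the other 4 arrays, and miR-143 and miR-145 lay within it. The multiciliated cell sum was 5840, against 3787 to 5118, and the red blood cell sum 57812, against 62783 to 91561. Both lists were split. On the log2 scale miR-449a (11.31, against 9.71 to 10.15) and miR-449c (5.25, against 2.86 to 3.58) lay above the other 4 arrays. miR-34b-3p, miR-34b-5p and miR-34c lay within their range, as did miR-144 of the red blood cell list. The striated muscle, nervous tissue and neuroendocrine sums lay within the range of the other 4 arrays, and the liver and gut sum of 408.9 lay below their 452 to 527. The summed signal of 39 herpesvirus miRNAs, foreign to an uninfected lung, was 478 on this array and lay within 346 to 580 on the others.

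The course was carried by both probes that the array holds for miR-551b, A_54_P2865 and A_54_P4406, each printed as 10 spots. Probe A_54_P4406 was the brighter on every array, and the ratio of A_54_P4406 to A_54_P2865 stayed between 3.10 and 3.99 (3.47 ± 0.26, SD over 24 arrays). At day 7 the scaled signals of A_54_P2865 were 516, 577, 498, 465 and 371, and those of A_54_P4406 were 1738, 1949, 1765, 1602 and 1244. At day 42 they were 11.1, 9.68, 12.7 and 3.84 for A_54_P2865, and 43.8, 38.4, 40.9 and 12.3 for A_54_P4406. On day 14 replicate 5 they were 464 for A_54_P2865 and 1599 for A_54_P4406, so both probes were high there. The log2 values of the 2 probes had a Pearson correlation of 0.9988 over the 24 arrays, which share RNA, slide and spot processing.

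Read alone, the probes gave differences close to each other. Day 14 minus day 7 was -3.07 for A_54_P2865 and -3.10 for A_54_P4406, and day 4 minus day 1 was 1.20 for each. The mean over arrays of the coefficient of variation between a probe's spots was 11.9% for A_54_P2865 and 5.31% for A_54_P4406. No spot was saturated.

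**Figure D3:**
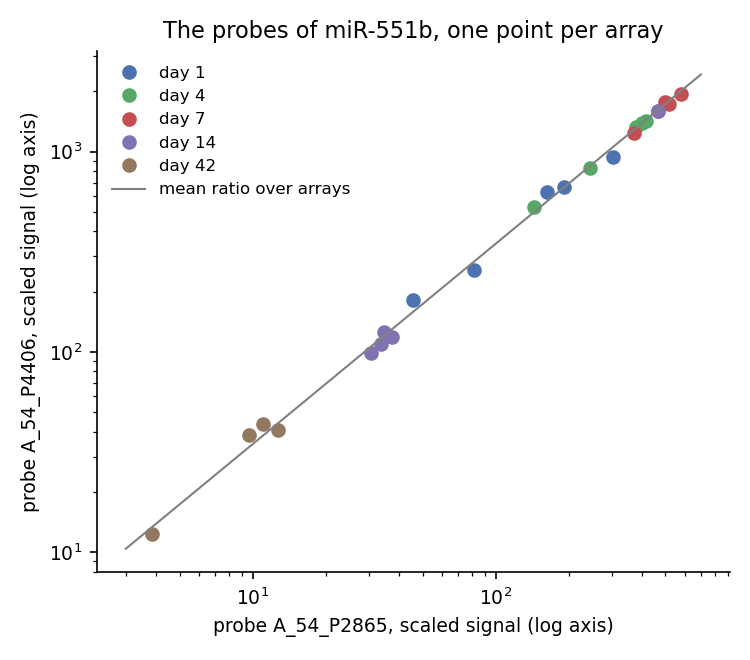
Scaled signal of probe A_54_P4406 (vertical, log axis) against probe A_54_P2865 (horizontal, log axis), with 1 point per array coloured by age, and a line at the mean ratio of 3.47. The points follow the line over the whole range, with the day 42 arrays at the low end, the day 7 arrays at the high end and 1 day 14 array (replicate 5) beside them.

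miR-551b was marked as detected on 24 of 24 arrays, but at 6 weeks it was near the limit of the measurement. All 20 spots were well above background on every array up to day 14, except for 18 on day 1 replicate 4. At day 42, 11, 15 and 20 spots passed on replicates 1, 2 and 3, and 1 spot on replicate 4. The error that the extraction software gives for the total signal was 34.7% on day 42 replicate 4 and 7.97 to 11.3% on the other arrays. Without day 42 replicate 4, day 42 minus day 14 was -2.26 and day 42 minus day 1 was -3.47 on the log2 scale.

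The spread of miR-551b between arrays was above the median of the tested miRNAs at each age. The day 14 standard deviation of 1.71 was not exceeded by any of the 322 tested miRNAs, whose median was 0.24. Without replicate 5 it was 0.14, which is below that median. The median of the tested miRNAs without that array was not computed. At day 1 the standard deviation was 1.02, with a median of 0.42 over the tested miRNAs and 25 of them above it. At day 4 it was 0.63, with a median of 0.34 and 30 above it. With all arrays kept, day 7 had the smallest, 0.24, with a median of 0.15 and 75 above it. At day 42 it was 0.85, with a median of 0.41 and 17 above it.

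The level of miR-551b at equal age was then set against array brightness, which played no part in choosing it. Each scaled value had been divided by this same brightness, so slopes on it, for miR-551b and for all miRNAs, are not independent of the scaling. Among the day 1 arrays the order of the levels was the order of the brightness, with 7.83 on the dimmest (brightness 923), then 8.40 (1099), 9.62 (1571), 9.75 (1917) and 10.28 on the brightest (2183). Among the day 4 arrays the dimmest gave 9.40 (1190) and the next 10.07 (1551), against 10.80 (2170), 10.84 (2330) and 10.73 (2546) on the brighter ones. The day 7 arrays had brightness between 2171 and 2696, and the 2 dimmest of them (2171 and 2176) were the 2 lowest (11.01 and 10.66). Day 14 replicates 1 to 4, between 2302 and 4954, showed no such order. At day 42 the dimmest array, replicate 4 (1727), gave 4.01, against 5.59 to 5.78 on the others (2662 to 4151). The 5 dimmest arrays of the series were day 1 replicates 1, 4 and 5 and day 4 replicates 1 and 3. They are also the 3rd lowest, the lowest and the 2nd lowest of day 1, and the 2 lowest of day 4.

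Within ages, the slope of the miR-551b level was 0.92 ± 0.45 (SE) on the log2 scale per doubling of brightness (limma, adjusted p = 0.0759 over the 322 miRNAs), which did not pass the threshold of 0.05. Without day 14 replicate 5 the slope was 1.21 ± 0.19 and passed (limma, adjusted p = 1.64e-05), and without day 14 replicate 3, the brightest array, it was 1.29 (adjusted p = 0.0171). Without the 5 dim arrays it was 0.18 (limma, adjusted p = 0.836), and without day 42 replicate 4, the dimmest of its age, it was 0.74 (adjusted p = 0.212). Such slopes were common: 216 of the 322 miRNAs (67.1%) passed, 74 (23%) with a positive and 142 (44.1%) with a negative slope, and 228 (70.8%) without day 14 replicate 5. The median slope was -0.18, and 28 miRNAs had a larger positive slope than miR-551b.

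With brightness as a covariate the differences kept their direction. Day 4 minus day 1 was 0.86 and day 7 minus day 4 was 0.35, both smaller than before. Day 14 minus day 7 was -3.43 and day 42 minus day 1 was -4.82, both larger in size. In the same model without day 14 replicate 5 these 4 differences were 0.75, 0.25, -4.38 and -5.11. Arrays of nearly equal brightness can also be read side by side. At a brightness of 2170 to 2183, miR-551b was 10.28 on day 1 replicate 3, 10.80 on day 4 replicate 2, 11.01 on day 7 replicate 4 and 10.66 on day 7 replicate 5. Without the 5 dim arrays, day 4 minus day 1 was 0.78, day 7 minus day 4 was 0.26 and day 14 minus day 1 was -2.05.

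**Figure D4:**
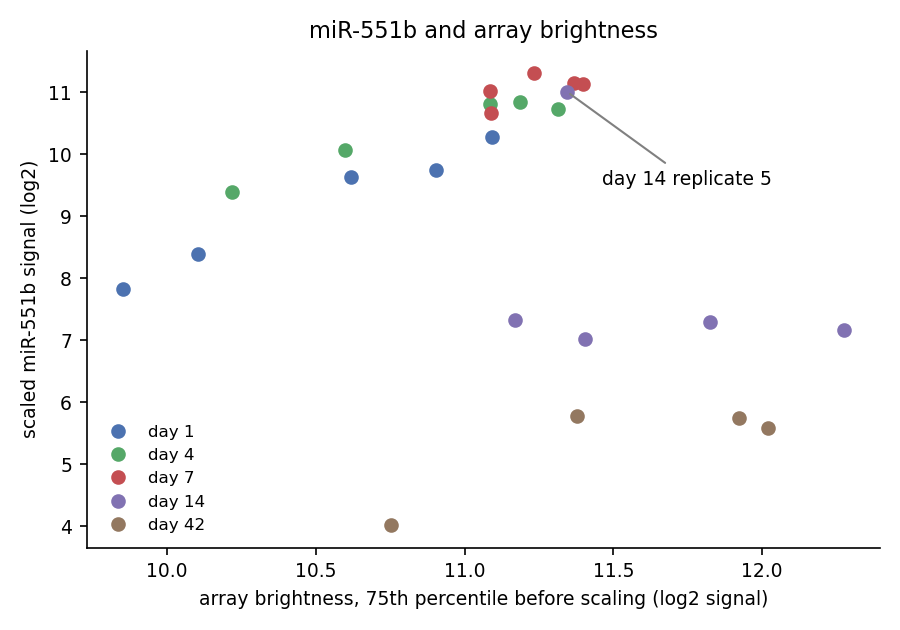
Scaled miR-551b signal (log2) against array brightness (log2 of the 75th percentile before scaling), with 1 point per array coloured by age. Day 1 and day 4 points climb with brightness, and the day 7 points sit together at the top among the brighter day 4 points. The day 14 and day 42 points lie far below, except for day 14 replicate 5, and all of these but day 42 replicate 4 (1727) have a brightness of at least 2302.

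Slides were compared next. In a model with age, slide 2 was above slide 1 by 0.63 and slide 3 above slide 1 by 0.59 on the log2 scale, or by 0.53 and 0.09 without day 14 replicate 5. The slide term did not pass (limma F-test, adjusted p = 0.768, and 0.744 without day 14 replicate 5). None of the 322 miRNAs passed for slide (0%), and 9 had an unadjusted p under 0.05. Within slide 1, which lacks day 14 replicate 5, the day 1, 4, 7, 14 and 42 means of miR-551b were 8.73 (2 arrays), 9.40 (1), 11.08 (2), 7.15 (2) and 5.59 (1). Within slide 2 it averaged 9.75 (1), 10.82 (2), 10.98 (2), 7.32 (1) and 5.76 (2) at the same ages. Within slide 3, which holds replicate 5, it averaged 9.34 (2), 10.40 (2), 11.14 (1), 9.09 (2) and 4.01 (1), with 7.16 at day 14 without that array. On each slide day 7 was the highest age and day 42 the lowest.

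The authors' deposited table of log2 values, which is adjusted between arrays in another way, showed the same shape. In it miR-551b averaged 8.46 ± 0.88 at day 1, 9.67 ± 0.60 at day 4, 10.35 ± 0.26 at day 7 (SD, n = 5 each) and 5.37 ± 0.93 at day 42 (SD, n = 4). At day 14 the table gave 6.60 to 6.90 on replicates 1 to 4 and 10.20 on replicate 5. Before any scaling, the summed spot signal was 1564 to 2705 at day 7, 156 to 316 on day 14 replicates 1 to 4, 2383 on day 14 replicate 5 and 12.4 to 92.4 at day 42. The array that stands apart thus did so in the raw signal too.

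The miRNAs whose log2 values followed miR-551b most closely over the 24 arrays were miR-503 (Pearson r = 0.95), miR-18a (0.95), miR-301a (0.92), miR-376a (0.91), miR-322 (0.91) and miR-130a (0.90), out of 145 mouse miRNAs whose age means spanned at least 1 on the log2 scale. The arrays share age, brightness and scaling, so these r values describe likeness only. Without day 14 replicate 5, 5 of the 6 stayed among the 6 most alike, and miR-20a* took the place of miR-130a. Over the 5 age means, 3 of the 6 stayed. Their main-arm sequences, from RefSeq (GRCm38.p6), are shown so that their seeds, in capitals, can be set beside that of miR-551b.
mmu-miR-503-5p: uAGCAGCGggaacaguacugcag
mmu-miR-18a-5p: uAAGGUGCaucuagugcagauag
mmu-miR-301a-3p: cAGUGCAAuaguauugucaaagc
mmu-miR-376a-3p: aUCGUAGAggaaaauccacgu
mmu-miR-322-5p: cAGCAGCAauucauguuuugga
mmu-miR-130a-3p: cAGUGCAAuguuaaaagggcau
miR-301a and miR-130a share the seed AGUGCAA, and none of the 6 has the seed of either arm of miR-551b. The genes of miR-503 and miR-322 neighbour each other on chromosome X, those of miR-18a, miR-301a, miR-376a and miR-130a lie on chromosomes 14, 11, 12 and 2, and none is on chromosome 3.

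The first-week means of miR-551b lay further apart than those of these 6. miR-503, which lowers messages of cell cycle genes, averaged 9.25, 9.37 and 9.68 on the log2 scale at days 1, 4 and 7, then 8.41 at day 14 (8.19 without replicate 5) and 7.44 at day 42. miR-18a, a product of the miR-17-92 cluster, which is known for promoting growth of the embryonic lung, averaged 8.92, 8.98, 9.19, 8.03 (7.89 without replicate 5) and 6.82 at the same ages. miR-376a, from the imprinted Dlk1-Dio3 cluster, averaged 8.38, 7.90, 8.50, 6.62 (6.35) and 4.12, and at day 42 it was detected on 3 of 4 arrays and set to the floor on the other. As for miR-551b, the day 14 means of all 3 lay under their first-week means and the day 42 means lay under those. Day 7 minus day 1 was 1.88 for miR-551b, against 0.43 for miR-503, 0.26 for miR-18a, 0.49 for miR-301a, 0.11 for miR-376a, -0.13 for miR-322 (from the same cluster as miR-503) and 0.17 for miR-130a. In day 42 minus day 1, miR-551b (-3.89) had miR-376a (-4.26) nearest to it, and the other 5 lay between -2.11 and -0.97.

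On day 14 replicate 5, miR-551b was above the mean of the other day 14 arrays by 3.81 on the log2 scale, and all 6 were above theirs, by 0.37 to 1.36. miR-376a was higher by 1.36, miR-503 by 1.13, miR-18a by 0.70, miR-322 by 0.58, miR-301a by 0.55 and miR-130a by 0.37. The 6 had been picked by likeness to miR-551b over arrays that included this one, though 5 of them stayed among the 6 without it. All 6 were lower on the other day 14 arrays than at day 7. Of the 204 miRNAs outside the range of those arrays on replicate 5, 195 lay on the day 7 side. The shared direction of the 6 is therefore not read as a separate link to miR-551b.

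**Figure D5:**
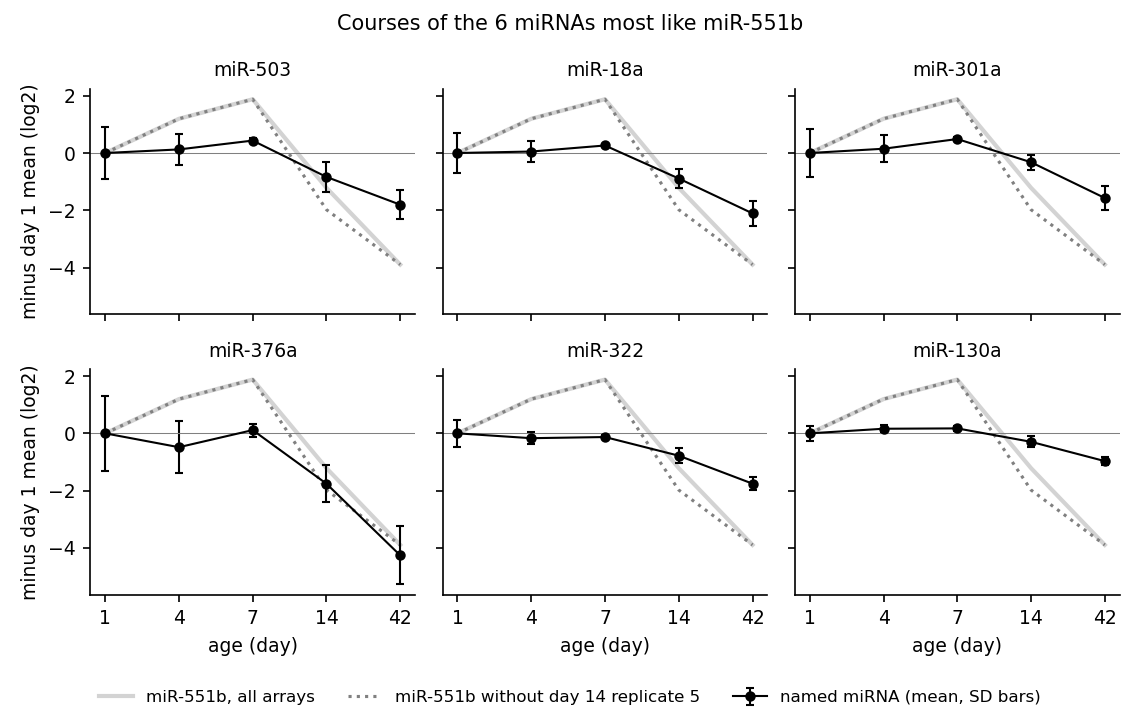
Age means of the 6 miRNAs most like miR-551b minus their own day 1 mean (black, log2, bars are SD between arrays), each with the course of miR-551b over all arrays (light grey) and without day 14 replicate 5 (dotted). miR-551b stands at 1.20 and 1.88 at days 4 and 7, while the 6 lie between -0.48 and 0.49.

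Other miRNAs with a transient course, picked with earlier results known, are given for comparison without a test. miR-218 averaged 10.29, 10.99, 11.43, 11.36 and 9.35 over the 5 ages, so that it was still near its day 7 level at day 14 (11.32 without replicate 5). miR-340-5p averaged 6.93, 7.55, 8.17, 7.89 (7.81 without replicate 5) and 6.94, and miR-455* averaged 6.42, 6.89, 7.35, 6.67 (6.54) and 5.28. miR-340-3p averaged 7.01, 7.26, 7.24, 7.01 (6.95) and 6.48. miR-455 averaged 9.06, 9.10, 8.88, 7.94 (7.80) and 7.29, so its day 7 mean lay below those of days 1 and 4.

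None of the tested miRNAs that share chromosome 3 with miR-551b passed in the comparisons that were tested for them. Of the 611 mouse names on the array, 506 were matched to 1 chromosome, and 21 names besides miR-551b lay on chromosome 3. Of these, 7 were tested: miR-1897-3p, miR-1897-5p, miR-15b, miR-15b*, miR-1895, miR-186 and miR-186*. In day 4 against day 1, where limma called 5 of 322 miRNAs at an adjusted p under 0.05 (1.55%), 0 of the 7 passed, and their median difference was -0.17, beside 0.03 over all tested miRNAs. In day 14 against day 7, where limma called 101 of 322 (31.4%), 0 of the 7 passed as well, and their median was -0.02, beside -0.05 over all. Without day 14 replicate 5, 0 of the 7 passed in either comparison, beside 12 (3.73%) and 112 (34.8%) of the 322. The nearest matched names with a place on the array, miR-1897-3p and miR-1897-5p, come from the same hairpin, 5221544 bases away. In day 4 against day 1, miR-1897-3p was at -0.21 ± 0.31 (SE, limma, adjusted p = 0.763) and miR-1897-5p at -0.25 ± 0.14 (adjusted p = 0.360). In day 14 against day 7 they were at -0.14 ± 0.31 (limma, adjusted p = 0.796) and -0.02 ± 0.14 (adjusted p = 0.915).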

How the data were processed

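The deposited array files hold intensity values per spot, background-subtracted by Agilent Feature Extraction 10.7.1.1 per the file headers and the submitters' processing notes, with no adjustment between arrays. The deposited series table holds log2 values adjusted between arrays by the authors; how is not given in the sources used here. It served as an alternative. From the files, spots marked as outliers were dropped, the processed spot signal was averaged per probe, and a miRNA's probes were summed. Each array was divided by its brightness and multiplied by a common factor of 2248, a floor of 7.24 was set, and log2 was taken. Differences were fitted with limma 3.58.1 in R 4.3.3 (lmFit, eBayes) over all 24 arrays with 19 residual degrees of freedom, with two-sided tests and Benjamini-Hochberg adjustment over 322 miRNAs. Tables and figures were made with Python 3.11.15. The scripts' tests were checked on simulated data. The number of arrays limits the precision.

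miR-551b, the marker lists, the comparison miRNAs and the tests were chosen with earlier results of these data known. Named besides miR-551b were the 6 miRNAs most like it by Pearson r, the transient miRNAs miR-218, miR-340 and miR-455, and the nearest names on its chromosome. Any name sharing its seed was to be named too, as were chromosome 3 names called in both comparisons, of which there were 0. miRNA arms of plain names were assigned from general knowledge. Of the 611 mouse names, 43 matched several chromosomes and 62 none in the RefSeq tables. The labels do not say whether the replicate numbers pair the arrays, and the arrays were treated as unpaired. Deviations of same-numbered arrays from their age means had a median correlation of -0.03 (range -0.86 to 0.84). Of 46 pairs, 18 were over 0.1. These values cannot decide whether arrays shared a litter or batch. Alternatives were other scalings, background corrections, floors, filters and models, slides, and left-out arrays.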

Additional observations from a re-analysis of the deposited data

Results flagged for a closer look

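Single arrays far from the others of their age were looked for among miR-551b and the named miRNAs. Of 60 groups of 4 or 5 arrays, 9 had such an array. Chance gives about 5% of groups, or 1 in 20, but the groups were not independent. All of the 9 except that of miR-130a came from day 14 replicate 5 or day 42 replicate 4. Some of the miRNAs had also been named for their likeness to miR-551b over these same arrays. The count of 9 is therefore not read as an excess over chance.

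For miR-551b, day 14 replicate 5 (11.01 on the log2 scale) lay far above the other 4 arrays (7.01 to 7.32). The same array was far above the others for miR-503 (9.32, against 8.07 to 8.39), miR-301a (10.85, against 10.18 to 10.36) and miR-322 (13.01, against 12.36 to 12.50). Day 42 replicate 4 was far below the other 3 arrays for miR-551b (4.01, against 5.59 to 5.78), miR-218 (8.73, against 9.51 to 9.62), miR-340-5p (5.94, against 7.23 to 7.30) and miR-455* (4.74, against 5.38 to 5.51). It had the lowest brightness of the day 42 arrays (1727). For miR-130a, day 7 replicate 4 (14.26) lay above the other 4 arrays (14.04 to 14.08).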

How the results depend on the processing

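The differences of miR-551b kept their direction in every alternative run; the cause of the changes in size was not tested. Over all alternatives, day 4 minus day 1 lay between 0.67 and 1.56, day 7 minus day 4 between 0.16 (slide 2) and 1.68 (slide 1), and day 14 minus day 7 between -4.38 (brightness as a covariate without day 14 replicate 5) and -2.06. Day 14 minus day 1 was -0.13 with no scaling, -2.82 without the dim arrays and day 14 replicate 5, and, without that array, -3.37 in the model with brightness. Day 42 minus day 14 was -5.07 within slide 3. Day 42 minus day 1 was -2.89 with no scaling, -2.52 with normexp, -5.11 with brightness as a covariate without day 14 replicate 5, and -5.32 within slide 3. Leaving out 1 array at a time gave -3.85 to -2.85 for day 14 minus day 7.

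The brightness slope passed with the percentile over all names (0.98, limma adjusted p = 0.0401), quantile normalization (0.96), the deposited table (0.96), and without the dim arrays and day 14 replicate 5 (0.73, adjusted p = 0.0250); leaving out 1 array gave 0.74 to 1.29. With no scaling it was 1.92, which holds brightness itself by construction and is no test. The slide term passed in none (limma adjusted p of at least 0.205). Of the 6 most alike miRNAs, 3 stayed among the 6 with the percentile over all names, quantile normalization, Spearman rho, age means, and without the dim arrays, and 2 with no scaling. 

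The count for day 4 against day 1 was 8 with quantile normalization, 3 with no scaling or a floor of 1, 2 with normexp, 28 with brightness, 37 with slide and brightness, 62 with brightness and without day 14 replicate 5, 20 without that array and the dim ones, 9 over all detected miRNAs and 43 with array weights; leaving out 1 array gave 3 (without day 1 replicate 1, 2 or 5, or day 4 replicate 2, 4 or 5), 9 (without day 4 replicate 1) and 12 (without day 14 replicate 5). The count for day 14 against day 7 was 156 with the percentile over all names, 9 with normexp, 153 with brightness, 161 with brightness and without day 14 replicate 5, and 211 with array weights. The replicate block, whose numbers are not stated to pair the arrays, gave -2.53 for day 42 minus day 14 and -3.75 for day 42 minus day 1. Its counts were 4 and 100, and its slope was 0.98 (limma adjusted p = 0.11). miR-1897-3p, called in none of these, changed sign in day 14 minus day 7 with the percentile over all names (0.22), median scaling (0.018), quantile normalization (0.15), no scaling (0.23), normexp (0.41), the deposited table (0.29), brightness (0.23, and 0.22 without day 14 replicate 5) and slide and brightness (0.20), and in day 4 minus day 1 with no scaling, brightness and slide and brightness (0.16 each, also without day 14 replicate 5). Normexp on mean signals was not run and was replaced by median signals, chosen after seeing the data, as were the combinations that leave out day 14 replicate 5 with another change. At 6 weeks the signal of miR-551b over background limits its precision.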
